A study of Mus musculus with 12 samples.

Results

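Transcripts of the enzymes that turn glucose and fatty acids into energy were examined in exosomes, the small membrane vesicles that cells release, from HL-1 cells. HL-1 is an established line of mouse atrial cardiomyocytes that goes on contracting in culture. The members were 48 listed gene symbols of glycolysis, pyruvate entry, the tricarboxylic acid (TCA) cycle, fatty acid oxidation and creatine kinase, taken by name and not by any measured value. They stand for 47 genes, since Pkm2 is an older symbol of Pkm, and 43 of these had a named probe on the array, with 65 probes, out of 16593 named genes and 25696 probes. Gpi1, Eno1, Ldhb and Hadha carried no named probe in the annotation used and were not analysed here. The samples were exosomes of untreated cells (control), of cells given transforming growth factor (TGF)-β2 at 10 ng/mL and of cells given platelet-derived growth factor (PDGF)-BB at 100 ng/mL, with 4 samples per group, each from 1 culture flask after 23 h in serum-free medium. Because all samples came from 1 cell line, the p-values measure the spread between flasks of that line only. The study left out 1 PDGF-BB sample for poor hybridization, but the labels do not say which, so all 12 arrays were used. Results that PDGF-BB sample 3 decided are also given without it, which does not mark it as the sample left out.

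Glycolysis splits glucose in the cytosol into pyruvate, which lactate dehydrogenase can turn into lactate. Inside the mitochondrion, the pyruvate dehydrogenase complex turns pyruvate into acetyl-CoA, which the TCA cycle oxidizes. The adult heart draws most of its energy from fatty acids, which enter mitochondria through the carnitine palmitoyltransferases and are shortened by β-oxidation, while creatine kinase moves the energy to the contracting filaments.

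A probe was called detected on an array where its detection p-value, the rank of its signal among the negative control beads of that array, was under 0.01. The number of probes detected per array ran from 294 to 1506. The samples lay on 2 chips of arrays, with 2 samples of each group on either chip. On both chips control took positions A and B, TGF-β2 C and D, and PDGF-BB E and F. Effects of group and of position on the chip therefore cannot be told apart, within a chip or with a chip block. Of 29 cardiomyocyte marker genes on the array, 10 were detected on at least 1 array (34.5%, against 17.3% of all named genes) and 19 on none. Among the detected markers, Myl4, the atrial myosin light chain, and Atp2a2, the pump that refills the calcium store, were each detected on 11 of 12 arrays, so the cell type of the label was borne out by a few of its markers only. Of the markers of other cell types, 3 of 11 fibroblast genes (27.3%), 1 of 6 leucocyte genes (16.7%), 0 of 9 endothelial genes and 0 of 5 erythroid genes were detected on at least 1 array. The fibroblast share thus also lay above the 17.3% of all named genes. On at least 3 arrays, 20.7% of the cardiomyocyte genes were detected, 0 of these others and 5.80% of all named genes. In exosome RNA, fewer vesicles and less RNA per vesicle cannot be told apart.

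Energy metabolism transcripts were detected on few arrays, as were genes of all kinds. Most of their detections, 22 of 35 pairs of a probe and an array, came from glycolysis. Of the 43 genes, 13 were detected on at least 1 of the 12 arrays (30.2%, against 17.3% of all named genes), 5 on at least 3 arrays (11.6%, against 5.80%) and 1 on at least 6 arrays (2.33%, against 2.04%). By probe, 14 of 65 were detected on at least 1 array (21.5%, against 13% of all probes) and 5 on at least 3 arrays (7.69%, against 4.28%). No member was detected on all 12 arrays, which 26 probes of the whole array were. Over all 780 pairs of a member probe and an array, 35 pairs passed (4.49%, against 2.80% for all named probes), where the threshold alone would let 7.8 pass. The 5 probes detected on at least 3 arrays gave 23 of their 60 pairs, and the remaining 60 member probes gave 12 of 720 (1.67%), against 0.977% for all named probes detected on fewer than 3 arrays.

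**Figure D1:**
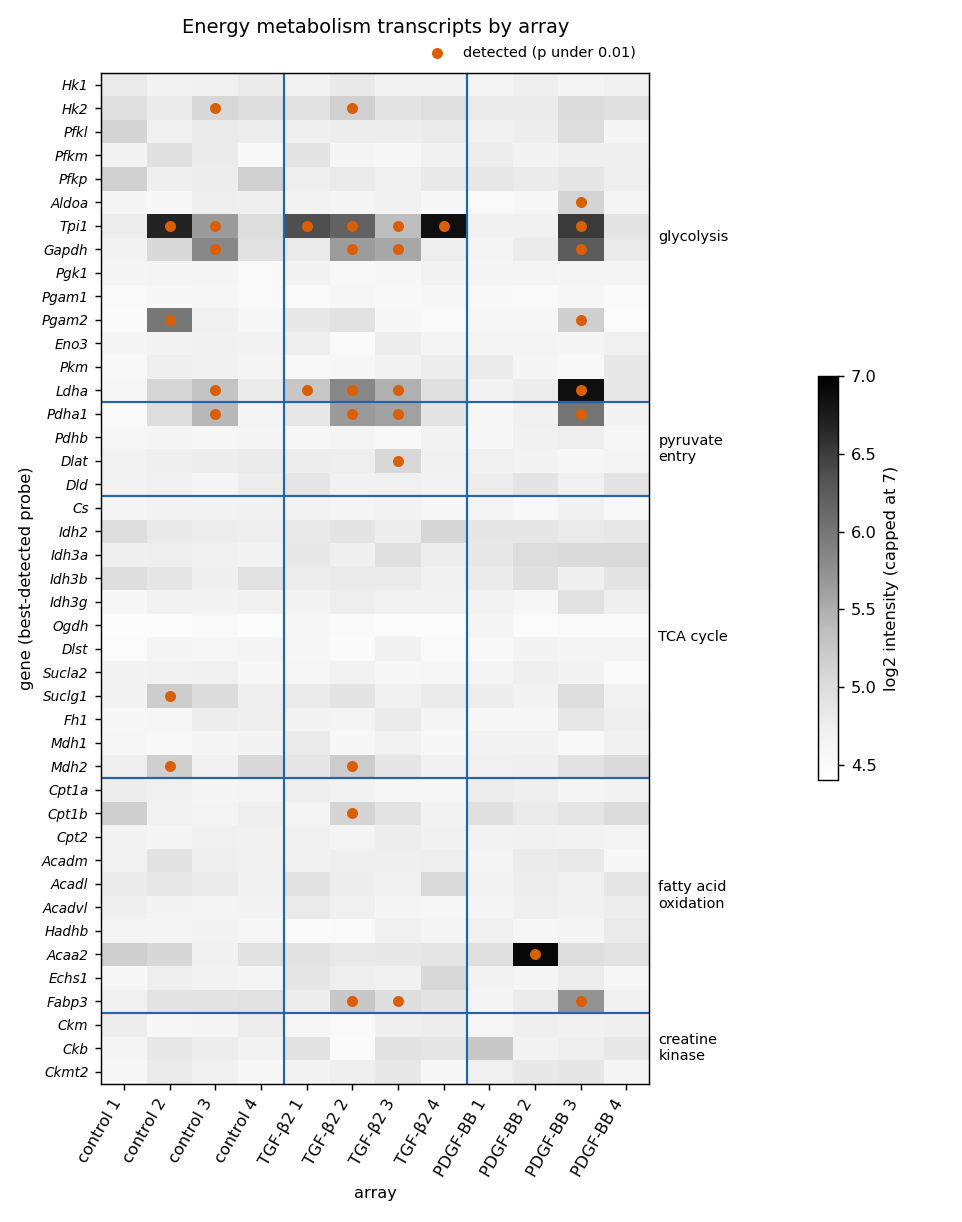
Log2 intensity of the 43 energy metabolism genes (rows, the best-detected probe of each) on the 12 arrays (columns), with dots where the detection p-value was under 0.01. The dots gather in the rows of Tpi1, Gapdh, Ldha and Pdha1 and in the columns of control 3, TGF-β2 2, TGF-β2 3 and PDGF-BB 3, and most other rows stay near background.

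The pathways differed in how often their genes were found. In glycolysis, 6 of 14 genes were detected on at least 1 array (42.9%) and 3 on at least 3 (21.4%), with 22 of 264 probe and array pairs passing (8.33%). At the entry of pyruvate, 2 of 4 genes were detected on at least 1 array and 1 on at least 3, with 5 of 60 pairs passing (8.33%). In the TCA cycle, 2 of 12 genes were detected on at least 1 array (16.7%) and 0 on at least 3, with 3 of 204 pairs passing (1.47%). In fatty acid oxidation, 3 of 10 genes were detected on at least 1 array (30%) and 1 on at least 3 (10%), with 5 of 204 pairs passing (2.45%). For the 3 creatine kinase genes, 0 of 48 pairs passed. The shares of the TCA cycle, fatty acid oxidation and creatine kinase were below the 2.80% of all named probes. By gene, fatty acid oxidation lay above the 17.3% and 5.80% of all named genes. For scale, olfactory and vomeronasal receptor genes, which serve the sense of smell, had 248 of 15660 pairs (1.58%). These shares are descriptions and were not tested against each other.

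The promoters of the 4 genes detected on most arrays are shown as a description. Whether these genes share any regulation was not tested. The windows are the 250 bases before the RefSeq start of each gene in build GRCm38.p6, 5′ to 3′ on the gene's strand. Capitals mark ACGTG or GCGTG on either strand, the core of the element that hypoxia-inducible factors bind in many glycolytic genes. Matches on the 2 strands can overlap and are then drawn as 1 run. The Tpi1 window is chr6:124814159-124814408 on the minus strand, the Ldha window is chr7:46845554-46845803 on the plus strand, the Gapdh window is chr6:125165774-125166023 on the minus strand and the Pdha1 window is chrX:160138431-160138680 on the minus strand. RefSeq lists 2 starts for Ldha, and the windows of Ldha and Gapdh lie inside the whole annotated genes.
Tpi1: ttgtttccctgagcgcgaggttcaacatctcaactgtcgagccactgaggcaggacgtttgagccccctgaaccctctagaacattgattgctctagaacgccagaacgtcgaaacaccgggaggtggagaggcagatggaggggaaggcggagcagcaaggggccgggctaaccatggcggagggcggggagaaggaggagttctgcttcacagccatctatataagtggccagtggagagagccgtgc
Ldha: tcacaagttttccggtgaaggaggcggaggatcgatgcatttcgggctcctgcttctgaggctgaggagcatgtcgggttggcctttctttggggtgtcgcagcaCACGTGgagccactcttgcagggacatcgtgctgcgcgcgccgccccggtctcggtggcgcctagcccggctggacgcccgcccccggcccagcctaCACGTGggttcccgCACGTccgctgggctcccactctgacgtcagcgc
Gapdh: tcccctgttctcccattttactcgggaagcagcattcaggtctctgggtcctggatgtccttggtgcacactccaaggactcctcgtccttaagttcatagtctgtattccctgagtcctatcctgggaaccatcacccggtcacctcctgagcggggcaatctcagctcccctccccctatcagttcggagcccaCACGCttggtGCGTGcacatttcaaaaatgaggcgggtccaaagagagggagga
Pdha1: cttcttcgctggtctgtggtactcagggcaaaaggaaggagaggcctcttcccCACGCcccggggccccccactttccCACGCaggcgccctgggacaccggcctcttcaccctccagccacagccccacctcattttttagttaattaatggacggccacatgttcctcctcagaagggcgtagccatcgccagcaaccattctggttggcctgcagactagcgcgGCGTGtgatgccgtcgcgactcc
The Ldha window held ACGTG at 5 positions counting both strands, the Gapdh window held GCGTG at 2 positions and the Pdha1 window held it at 3. The Tpi1 window held neither. Of all 32851 windows of this length, 16.6% held ACGTG, 28.2% held GCGTG and 38.6% held either, so a match is common and describes letters only.

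Tpi1, which encodes the triosephosphate isomerase that interconverts the 3-carbon sugars of glycolysis, was the member detected most widely. The gene lies at chr6:124810586-124814158, and its probe ILMN_1230137 was detected on 7 of 12 arrays, namely 2 of control, 4 of TGF-β2 and 1 of PDGF-BB. In control samples 1 to 4 the log2 intensity was 4.78, 6.68, 5.66 and 4.99. In TGF-β2 samples 1 to 4 it was 6.37, 6.18, 5.36 and 6.87. In PDGF-BB samples 1 to 4 it was 4.70, 4.69, 6.52 and 4.89. All 4 TGF-β2 samples lay above the 3 low PDGF-BB samples and above control samples 1 and 4, while control samples 2 and 3 and PDGF-BB sample 3 reached the TGF-β2 range, so the groups overlapped. Control averaged 5.53 ± 0.85, TGF-β2 averaged 6.19 ± 0.63 and PDGF-BB averaged 5.20 ± 0.88 (SD over 4 samples). On the scanner's scale, before normalization, the detected arrays read from 101 to 237 units and the others from 9.06 to 49.9, with standard errors between beads of 9.78 to 21.7. The other Tpi1 probes were detected on 0 arrays and on 1 array, so the pattern rests on this probe alone.

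Ldha, the muscle form of lactate dehydrogenase, was detected on 5 arrays by its only probe, ILMN_1257965. The gene spans chr7:46842274-46855627. Its log2 intensity was 4.57, 5.08, 5.29 and 4.79 in the control samples, with sample 3 detected. It was 5.26, 5.84, 5.48 and 4.95 in the TGF-β2 samples, with samples 1 to 3 detected. In the PDGF-BB samples it was 4.66, 4.76, 6.85 and 4.84, with sample 3 detected. PDGF-BB sample 3 held the highest value of all 12 arrays and the other 3 PDGF-BB samples lay among the low control values, so again no group stood clear of another.

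Gapdh, the glyceraldehyde-3-phosphate dehydrogenase of glycolysis that is often used as a reference gene, was detected on 4 arrays. The gene spans chr6:125161852-125166467. With probe ILMN_2588056 its log2 intensity was 4.65, 5.05, 5.83 and 4.92 in control, 4.81, 5.64, 5.55 and 4.75 in TGF-β2 and 4.64, 4.80, 6.25 and 4.80 in PDGF-BB samples 1 to 4. It was detected in control 3, TGF-β2 2 and 3 and PDGF-BB 3, and within every group the remaining samples lay at 5.05 or below. The other Gapdh probe was detected on 0 arrays.

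Pdha1, the α subunit of pyruvate dehydrogenase that carries the phosphorylation sites by which the complex is switched off, was detected on exactly the 4 arrays of Gapdh. It lies at chrX:160122219-160138430 and was read by probe ILMN_2679851. Its log2 intensity was 4.51, 5.0, 5.41 and 4.64 in control, 4.85, 5.67, 5.61 and 4.90 in TGF-β2 and 4.57, 4.71, 6.0 and 4.67 in PDGF-BB samples 1 to 4. Each group thus held high and low samples side by side.

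Fabp3, the heart fatty acid binding protein that carries fatty acids through the cytosol, was the only 1 of the 10 fatty acid oxidation members detected on at least 3 arrays. It lies at chr4:130308738-130315463 and was read by probe ILMN_2887630. Its log2 intensity was 4.72, 4.90, 4.90 and 4.94 in control, with 0 samples detected. It was 4.76, 5.24, 4.98 and 4.90 in TGF-β2, with samples 2 and 3 detected, and 4.61, 4.79, 5.73 and 4.71 in PDGF-BB, with sample 3 detected. Its level in control was therefore not well above background, and no difference from control is given because the bound that the lowest detected signals allow was under 1-fold.

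**Figure D2:**
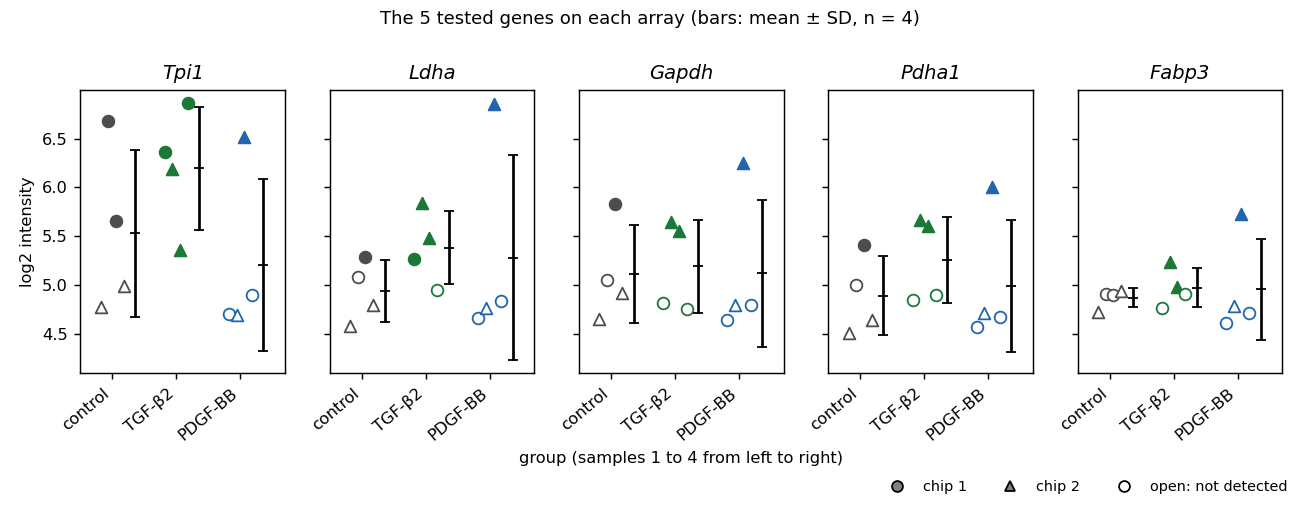
Log2 intensity of the 5 genes detected on at least 3 arrays, by group, with 1 symbol per sample (filled where detected, circles for chip 1 and triangles for chip 2) and bars for mean ± SD (n = 4). The 3 groups overlap for every gene, and PDGF-BB sample 3 stands above the other 3 PDGF-BB samples in all 5 panels.

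The remaining detected members were seen on 1 or 2 arrays each. Hk2, the insulin-regulated hexokinase of muscle, was detected in control sample 3 and TGF-β2 sample 2, with log2 intensities of 5.05 and 5.15, and Hk1 on 0 arrays. Pgam2, the muscle phosphoglycerate mutase, was detected in control sample 2 at 5.98 and in PDGF-BB sample 3 at 5.16, and Pgam1 on 0 arrays. Mdh2, the mitochondrial malate dehydrogenase, was detected in control sample 2 at 5.15 and TGF-β2 sample 2 at 5.20. Aldoa, the muscle aldolase, was detected in PDGF-BB sample 3 alone and Dlat, the acetyltransferase of the pyruvate dehydrogenase complex, in TGF-β2 sample 3 alone. Suclg1, a subunit of succinyl-CoA ligase, was detected in control sample 2 alone and Cpt1b, the muscle form of carnitine palmitoyltransferase 1, in TGF-β2 sample 2 alone, whereas Cpt1a, the liver form, was detected on 0 arrays. Acaa2, the thiolase of mitochondrial β-oxidation, was detected by 1 of its 4 probes in PDGF-BB sample 2, with a log2 intensity of 6.92. On the scanner's scale that value was 75.5 ± 13.1 (standard error between beads), close to the 76.7 ± 17.5 of the same probe in control sample 2, where the log2 intensity was 5.06 and the probe was not detected.

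The other 30 genes were detected on 0 arrays. In glycolysis these were Hk1, the phosphofructokinases Pfkl, Pfkm and Pfkp, Pgk1, Pgam1, the muscle enolase Eno3, and Pkm, the pyruvate kinase of the last step. At the entry of pyruvate they were Pdhb and Dld. In the TCA cycle they were Cs, the citrate synthase of the entry step, Idh2, Idh3a, Idh3b, Idh3g, Ogdh, the core of the oxoglutarate dehydrogenase complex, Dlst, Sucla2, Fh1 and Mdh1, whose product works in the cytosol. In fatty acid oxidation they were Cpt1a, Cpt2, Acadm, the medium-chain acyl-CoA dehydrogenase, Acadl, Acadvl, Hadhb and Echs1, and the creatine kinases Ckm, Ckb and Ckmt2 completed the list. Their probes were not well above background, which does not show that the transcripts were absent. Among the 14 member genes with several probes, 5 were detected by at least 1 probe and 0 by all of their probes.

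The detected members shared their arrays. Gapdh and Pdha1 were detected on control 3, TGF-β2 2, TGF-β2 3 and PDGF-BB 3, Ldha on these and TGF-β2 1, and Fabp3 on the last 3 of these 4. These 4 arrays were also the ones with the most probes detected of any kind, 989 to 1506. They held 26 of the 34 detections of a member gene on an array (76.5%), against 53.7% of the detections of all named genes. Tpi1 differed in being detected also in TGF-β2 samples 1 and 4, where only 564 and 518 probes were detected. The part of array quality in these shared arrays was not tested.

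By array, TGF-β2 samples 1 to 4 held 2, 8, 6 and 1 of the 43 member genes. Control samples 1 to 4 held 0, 4, 5 and 0 of them. PDGF-BB samples 1 to 4 held 0, 1, 7 and 0. At this threshold TGF-β2 was the only group in which every sample held at least 1 of them, while at a threshold of 0.05 every sample of all 3 groups did. As a percentage, TGF-β2 averaged 9.88% ± 7.68, control 5.23% ± 6.12 and PDGF-BB 4.65% ± 7.83 (SD over 4 samples), so the differences between the groups were smaller than the spread within them. All named genes averaged 4.74% ± 2.34, 3.96% ± 1.62 and 2.82% ± 1.88 in the same order. The order of TGF-β2 and control depended on the setting: at a threshold of 0.05 they averaged 13.4% and 15.1%, and among the 1000 brightest probes of each array both averaged 9.30%. Without PDGF-BB sample 3 the PDGF-BB mean was 0.775%. Chip and group crossed in these counts: control had 10.5% on chip 1 and 0% on chip 2, TGF-β2 had 3.49% and 16.3%, and PDGF-BB had 0% and 9.30%. The share of cardiomyocyte marker genes detected ran from 3.45% in PDGF-BB sample 1 to 24.1% in TGF-β2 samples 2 and 3 and PDGF-BB sample 3. The arrays at 24.1% were among the 4 with the most probes detected of any kind. In control sample 4, with 0 members, and TGF-β2 sample 1, with 2, the share was 13.8% alike. Its part in the result was not tested.

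**Figure D3:**
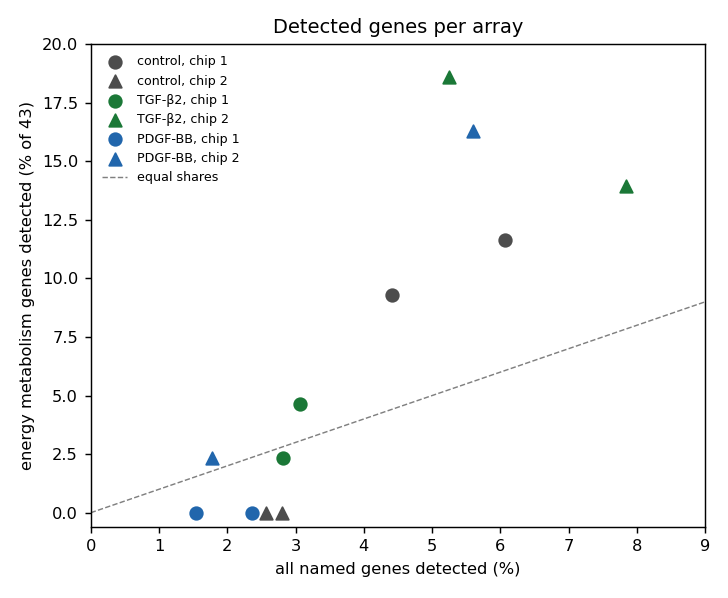
Percentage of the 43 energy metabolism genes detected on each array (vertical axis) against the percentage of all named genes detected on the same array (horizontal axis), with colours for groups, symbols for chips and a dashed line where both are equal. The 5 arrays with the most genes detected (4.41 to 7.84%) lie well above the line with 9.30 to 18.6% of the members, and 4 arrays lie at 0.

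Each growth factor was then compared with control, and the growth factors with each other, to ask whether they altered the level of these transcripts in exosomes. The 5 member probes detected on at least 3 arrays entered the test, among 1099 such probes of the array. With limma, 0 of the 5 passed an adjusted p of 0.05 in any of the 3 comparisons, and 0 of 1099 probes did (0%). At an unadjusted p under 0.05, 0 of the 5 member probes passed in any comparison, against 4 higher and 4 lower of all probes in TGF-β2 minus control (0.364% and 0.364%), 9 and 39 in PDGF-BB minus control (0.819% and 3.55%) and 41 and 11 in TGF-β2 minus PDGF-BB (3.73% and 1%). The groups did not separate for any of the 5 probes in any comparison, against 0.637%, 1.73% and 1.91% of all tested probes. The comparisons with control share the 4 control samples, and each is given with its own values.

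In TGF-β2 minus control, the difference was 0.67 ± 0.52 for Tpi1 (SE, from 4 samples against 4), 0.45 ± 0.44 for Ldha, 0.36 ± 0.35 for Pdha1 and 0.08 ± 0.39 for Gapdh. The limma adjusted p was 1 for each of them. These 4 genes, detected in both groups, were all above 0, as were 58.1% of all tested probes, and their median was 0.41 in log2 units against 0.05 for all. Single samples moved the sizes: Tpi1 was 0.44 without control sample 1 and 1.01 without control sample 2, Ldha was 0.29 without TGF-β2 sample 2, and Pdha1 was 0.21 without TGF-β2 sample 3. When each array was scaled to a common median, the difference of Tpi1 was 0.07. Within chips, Tpi1 gave 0.45 on chip 1 and 0.89 on chip 2. For Ldha the values were -0.08 and 0.98, for Pdha1 -0.33 and 1.06 and for Gapdh -0.65 and 0.81, so that Tpi1 alone of the 4 kept its direction on both chips.

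In PDGF-BB minus control, the difference was -0.33 ± 0.52 for Tpi1 (limma adjusted p = 0.952) and 0.34 ± 0.44 for Ldha (adjusted p = 0.936). Pdha1 and Gapdh differed by 0.10 ± 0.35 and 0.01 ± 0.39, each with a limma adjusted p of 0.999. Of these 4 genes, 3 were above 0, against 41.4% of all probes, with a median of 0.05 against -0.06. PDGF-BB sample 3 decided these values: without it the differences were -0.73 for Tpi1, -0.18 for Ldha, -0.24 for Pdha1 and -0.35 for Gapdh. None of these genes was detected in another PDGF-BB sample, so the values without sample 3 set background signal against control. All 4 were below 0 on chip 1 and above 0 on chip 2, with medians of -0.65 and 0.76.

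In TGF-β2 minus PDGF-BB, the difference of Tpi1 was 0.99 ± 0.52 (unadjusted p = 0.0793, limma adjusted p = 0.830). It was 1.82 on chip 1, 0.17 on chip 2 and 0.28 when each array was scaled to a common median. The difference was 0.27 ± 0.35 for Pdha1, 0.10 ± 0.44 for Ldha, 0.07 ± 0.39 for Gapdh and 0.01 ± 0.25 for Fabp3, with limma adjusted p values of 0.848, 0.950, 0.964 and 0.994. All 5 were above 0, as were 66.2% of all tested probes, with a median of 0.10 against 0.14. With median scaling the signs of Ldha, Gapdh and Fabp3 turned.

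Without PDGF-BB sample 3, TGF-β2 minus PDGF-BB was 1.36 for Tpi1, 0.61 for Ldha, 0.59 for Pdha1 and 0.43 for Gapdh, with a median of 0.60, and Fabp3 was no longer detected on 3 arrays. Tpi1, Ldha, Pdha1 and Gapdh were not detected in any other PDGF-BB sample. These values therefore set TGF-β2 against background signal and do not size a difference. PDGF-BB sample 3 was singled out by its high values, so the p-values without it are no support for a difference. Tpi1 and Ldha then had limma unadjusted p values of 0.0102 and 0.0373, so that 2 of 4 members were higher at an unadjusted p under 0.05, against 9.39% of the 937 probes tested. Their adjusted p values were 0.237 and 0.343, where the alternatives ran from 0.237 to 0.998 for Tpi1 and from 0.343 to 0.999 for Ldha. Tpi1 also had an unadjusted p of 0.0280 with the authors' cubic spline values and of 0.0408 without TGF-β2 sample 3, with limma adjusted p values of 0.720 and 0.957. Without PDGF-BB sample 1, 2 or 4 instead, the median of the 5 tested members was -0.09, -0.04 and -0.04. PDGF-BB sample 3 had the most probes detected of its group (1070, others 294 to 421). Over the tested probes, the log2 intensities of PDGF-BB sample 1 correlated with those of the other arrays at 0.13 to 0.44. The highest correlation of any 2 arrays was 0.95. This does not mark PDGF-BB sample 1 as the sample left out either.

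**Figure D4:**
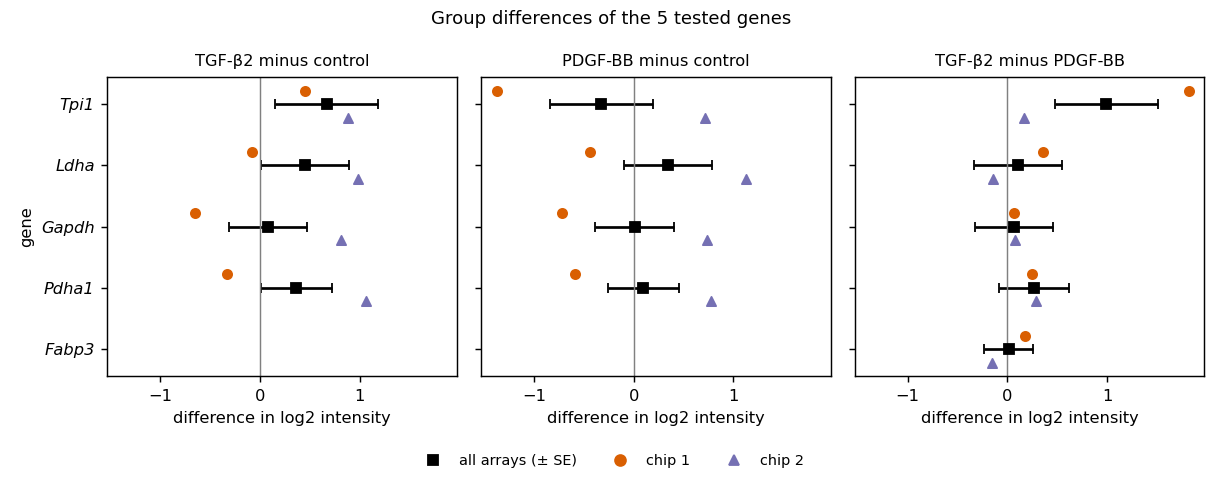
Difference in log2 intensity (horizontal axis) for the tested genes in the 3 comparisons (Fabp3, not detected in control, is drawn in the last only), with squares and bars for all arrays ± SE and separate symbols for chip 1 and chip 2. The chip 1 and chip 2 values fall on opposite sides of 0 for the 4 genes drawn in PDGF-BB minus control and for all but Tpi1 in TGF-β2 minus control.

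With no filter on dim probes, all 65 member probes were tested, and limma called 0 of them in each comparison. At an unadjusted p under 0.05, 1 was higher and 0 lower in TGF-β2 minus control, namely Echs1, against 1.40% and 1.51% of all probes. In PDGF-BB minus control 2 were higher, Idh3a (limma unadjusted p = 0.00101) and a probe of Acaa2, against 2.23% higher and 1.90% lower among all probes. In TGF-β2 minus PDGF-BB, Dlat and Echs1 were higher and Idh3a lower, against 1.60% and 1.83%. The lowest adjusted p over these was 0.989. Idh3a, Echs1 and this Acaa2 probe were detected on 0 arrays and Dlat on 0 PDGF-BB arrays, so no sizes are given.

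Of 75 other listed genes of the same pathways, 63 were on the array. Of these, 9 were detected on at least 1 array (14.3%, against 17.3% of all named genes), 6 on at least 3 (9.52%, against 5.80%) and 1 on at least 6 (1.59%, against 2.04%), with 41 of 1140 probe and array pairs passing (3.60%, against 2.80%). The genes on at least 3 arrays were Pdp2, Acly, the ATP citrate lyase, Etfb, a subunit of the electron transfer flavoprotein that takes electrons from β-oxidation, Hkdc1, which encodes a hexokinase domain protein, Ppargc1b, a coactivator of mitochondrial genes, and Acsl5, a long-chain acyl-CoA synthetase. With limma, 0 of their 7 probes passed in each comparison.

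Pdp2, a catalytic subunit of the phosphatase that reactivates pyruvate dehydrogenase, stood out among them with detection on 11 of 12 arrays by its probe ILMN_3134598. Its log2 intensity was 5.30, 9.66, 8.07 and 9.74 in PDGF-BB samples 1 to 4, 9.43, 9.58, 9.74 and 9.43 in TGF-β2 and 9.83, 9.74, 10.13 and 9.66 in control. The array on which it was not detected was PDGF-BB sample 1. PDGF-BB sample 3 also lay below all TGF-β2 and control samples in log2 intensity, and PDGF-BB samples 2 and 4 lay within their range. On the scanner's scale, before normalization, PDGF-BB samples 1 to 4 read 76.8, 239, 598 and 367 units. There PDGF-BB sample 3 lay above control sample 1 (171) and TGF-β2 samples 1 and 4 (422 and 432). PDGF-BB samples 2 and 4 lay above control sample 1 there, but below all TGF-β2 samples and below control samples 2, 3 and 4. The places of PDGF-BB samples 2, 3 and 4 thus depended on the scale. The low log2 intensity of sample 3 does not show a low signal, and those of samples 2 and 4 do not show signals equal to the other groups. The difference was -0.30 ± 0.77 in TGF-β2 minus control (limma adjusted p = 1), -1.65 ± 0.77 in PDGF-BB minus control (adjusted p = 0.820) and 1.35 ± 0.77 in TGF-β2 minus PDGF-BB (adjusted p = 0.830). The other Pdp2 probe was detected on 5 arrays, with differences of -0.06, -0.63 and 0.57.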

How the data were processed

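Whole RNA of 12 exosome samples was amplified, labelled and hybridised to 1 MouseRef-8 BeadChip array each. The deposited scanner table gives, per the file headers, a mean bead intensity with background subtracted and no normalization between arrays, with bead standard errors, and a deposited detection p-value in steps of 1 in 798. Per the labels the software was GenomeStudio. The authors also deposited intensity values normalized with cubic splines for 25697 probes, used here as an alternative. The authors deposited no log2 values: log2 intensity was computed with normexp background correction from control moments inferred from the detection p-values, and quantile normalization with an offset of 16 (neqc, limma 3.58.1, R 4.3.3). Plots used matplotlib 3.10.9 in Python 3.11.15.

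Probes detected on at least 3 arrays (1099) entered 1 limma fit of group means to the 12 arrays, two-sided, with Benjamini-Hochberg adjustment over all of them and a threshold of 0.05. The number of arrays limits the precision: the median SE of a difference was 0.34. Of all probes, 23977 carried 1 gene symbol, 0 several and 1719 none, and 23961 named probes matched the RefSeq gene table by identifier. All members were placed by the number of arrays on which their best probe was detected. Members on at least 6 arrays were to be given on every array, and the tested members with their differences. The array values of tested genes below 6 arrays, and of those detected on 1 or 2, were chosen after their values were seen. The members, the lists of other genes and the tests were chosen with earlier results of these data known. The alternatives changed the threshold, filter, offset, normalization, weights, blocks, chips and arrays, and 1 alternative, the 1000 brightest probes per array in place of a detection p-value, was chosen after seeing the data. The fit was tested on simulated data. The arrays of the parental cells were not used here.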

Additional observations from a re-analysis of the deposited data

Results flagged for a closer look

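In groups of 4 samples, a sample is listed here when its gap to the nearest other sample takes up nearly the whole range of the group. For unselected and independent groups chance would list about 1 in 20, which is 2.25 of the 45 examined. Here 9 were listed, 7 of them for PDGF-BB sample 3. Values of 1 array are not independent of each other. Acaa2 was also detected only on the array listed for it. The counts therefore do not measure whether chance was exceeded.

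PDGF-BB sample 3 lay above the other PDGF-BB samples for the log2 intensity of Tpi1 (6.52, others 4.69 to 4.89), Gapdh (6.25, others 4.64 to 4.80), Ldha (6.85, others 4.66 to 4.84), Pdha1 (6.0, others 4.57 to 4.71), Fabp3 (5.73, others 4.61 to 4.79) and Pgam2 (5.16, others 4.48 to 4.58). The percentage of member genes detected was 16.3% there and 0 to 2.33% in the other PDGF-BB samples. Control sample 2 lay above the other control samples for Pgam2 (5.98, others 4.51 to 4.72). PDGF-BB sample 2 lay above the others for Acaa2 (6.92, others 4.90 to 4.99).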

How the results depend on the processing

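No member probe passed the adjusted threshold of limma under any alternative run, which included no filter, a chip block, array weights, the cubic spline values and each sample left out. At a detection p-value threshold of 0.05, 2 genes were detected on at least 6 arrays in place of 1, and the control mean was 15.1% against 13.4% for TGF-β2. Over all 5 tested members, Fabp3 included although it was not well above background in control, the median difference in PDGF-BB minus control was -0.59 on chip 1 and 0.74 on chip 2. The median difference in TGF-β2 minus PDGF-BB was 0.67 with the cubic spline values and 0.99 with a filter of 6 arrays, where Tpi1 was the only member left. In PDGF-BB minus control, signs turned for Fabp3 (-0.35 with cubic splines, -0.022 with array weights), Gapdh (-0.23 and -0.21) and Pdha1 (-0.083 and -0.10). In TGF-β2 minus PDGF-BB they turned for Fabp3 (-0.28 with median scaling, -0.0081 with an offset of 50), Ldha (-0.12 and -0.0027) and Gapdh (-0.086 with median scaling), where median scaling moved the median of all tested probes from 0.14 to -0.0011. It also moved the median of the 5 members in TGF-β2 minus control from 0.36 to 0.14. The cause was not tested.

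With each sample left out in turn, the control mean ran from 3.10 to 6.98%, that of TGF-β2 from 6.98 to 12.4% and that of PDGF-BB from 0.775 to 6.20%. The median difference ran from 0.25 to 0.52 in TGF-β2 minus control, -0.29 to 0.23 in PDGF-BB minus control and -0.09 to 0.60 in TGF-β2 minus PDGF-BB. In TGF-β2 minus control, single genes ran from 0.44 to 1.01 for Tpi1, 0.29 to 0.61 for Ldha, 0.21 to 0.52 for Pdha1 and -0.076 to 0.30 for Gapdh. In PDGF-BB minus control they ran from -0.73 to 0.051 for Tpi1, -0.18 to 0.57 for Ldha, -0.35 to 0.23 for Gapdh and -0.24 to 0.26 for Pdha1. In TGF-β2 minus PDGF-BB they ran from 0.80 to 1.36 for Tpi1, 0.13 to 0.59 for Pdha1, -0.10 to 0.61 for Ldha, -0.093 to 0.43 for Gapdh and -0.11 to 0.078 for Fabp3. For Tpi1, Pdha1, Ldha and Gapdh, the highest of these and the lowest in PDGF-BB minus control came without PDGF-BB sample 3. No other PDGF-BB sample detected these genes.

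The labels do not say whether the sample numbers pair the groups. Deviations from the group mean correlated from -0.23 to 0.43 for same-numbered samples, with 7 of 12 pairs over 0.1. For samples of other groups and other numbers they correlated from -0.50 to 0.47, so pairing was not settled. With the number as a replicate block, limma called 0 member probes in each comparison, the median differences stayed at 0.36, 0.09 and 0.10, and no other call changed. Probes at a limma unadjusted p under 0.05 went from 9 higher and 39 lower to 12 and 71 in PDGF-BB minus control. They went from 41 and 11 to 74 and 14 in TGF-β2 minus PDGF-BB, and stayed at 4 and 4 in TGF-β2 minus control.

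Most member signals lay near background, and the median SE of a difference was 0.34. Near background the same scanner signal had different log2 values on different arrays, as the Acaa2 values of 6.92 and 5.06 from 75.5 and 76.7 units show. Bright signals were also affected. For the Pdp2 probe ILMN_3134598 a log2 intensity of 9.74 came from 1674 units in control sample 2, 2216 in TGF-β2 sample 3 and 367 in PDGF-BB sample 4.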
